A study of Mus musculus with 8 samples.

Results

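The Z-disc is the plate at each end of the cardiac sarcomere where actin filaments of neighbouring sarcomeres are anchored and cross-linked and where the end of titin is held. Its proteins carry load, and several of them also take part in sensing stretch and in signalling to the nucleus. Peaks of N6-methyladenosine (m6A), a methyl mark on adenosines of RNA that the enzyme FTO can remove, were described here for 6 Z-disc genes: Tcap, Actn2, Csrp3, Xirp2, Flnc and Ankrd23. Their peaks were taken by Entrez gene ID, not by a measured value, from the 2 peak tables the authors deposited. The 6 genes were chosen with earlier results of these data known, so that each was listed is not a result. All 6 had at least 1 listed peak, out of 274 named genes in either table, and together they held 16 of 581 listed peaks.

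The study used MeRIP-seq, which sequences RNA fragments captured by an anti-m6A antibody and, as the input, fragments that skipped the capture. RNA came from left ventricle of wild-type C57BL/6 mice, labelled 1 week post MI (myocardial infarction) in all 4 groups. These were sham-operated hearts, infarcted hearts (MI), and infarcted hearts of an aavgnp and an aavFto group. Each group had 1 input and 1 MeRIP library, 8 in all. The labels do not expand aavgnp or aavFto, name no promoter or target cell for either, and do not say how many animals gave the RNA of a group. The aavFto and aavgnp groups shared the infarct. One table compares MI with sham, which differ in the infarct. The other names its groups as fto and null and was read as aavFto against aavgnp, because the labels of those libraries point to it; that null means aavgnp is an assumption. No library enters both.

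With 1 library of each kind per group, no value below could be checked against replicates, and the deposited p-values and false discovery rates (FDR) set library against library, not condition against condition. The sign of the log2 change is not stated in the file headers. It was read as MI over sham and as aavFto over aavgnp, and the other reading would turn every direction of that table. A peak's values in single groups, library depths and transcript levels were not analysed here. Among 8 genes that mark heart muscle cells (Myh6, Tnnt2, Actc1, Myl2, Ttn, Ryr2, Tnni3 and Pln), 8 had a listed peak in the aavFto table and 1, Myh6, in the MI table. Of all 274 named genes, 271 were listed in the aavFto table and 77 in the MI table, and 71.9% were listed only with aavFto. In the MI table no listed change was smaller than 1.01 in either direction. In bulk ventricle, fewer muscle cells and less marked RNA per cell cannot be told apart.

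Across the group, the peak over Tcap was higher with aavFto, and it was the only member peak past an FDR of 0.05. Actn2, Csrp3 and Xirp2, 3 of the 6, were listed in both tables, as were 74 of all 274 named genes (27.0%), and the other 3 only with aavFto. All 4 member peaks in the MI table had positive changes, between 1.25 and 1.93, that did not pass. With aavFto, the peaks of Actn2, Csrp3 and Xirp2 with the smallest p of enrichment over input had small positive changes of 0.31 to 0.74. The other Actn2 peaks stood at 0.29 and -0.93, and the other Xirp2 peaks were all negative, between -0.95 and -0.61. Both Flnc peaks and the Ankrd23 peak had negative changes, between -2.16 and -0.90, in the authors' deposited table. Of the 12 member peaks with aavFto, 1 passed the FDR, against 1.72% of all 465 listed peaks (8 peaks). For MI 0 of 4 passed, against 14.7% of 116 (17 peaks). At an unadjusted p under 0.05 the member counts were the same, 1 of 12 and 0 of 4, against 4.30% and 25.9% of all listed peaks.

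**Figure D1:**
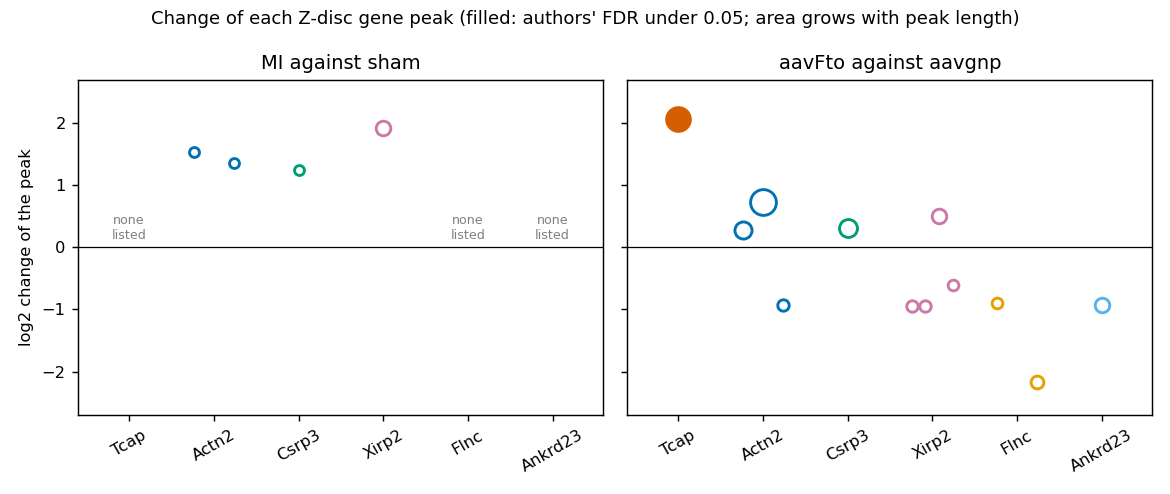
Log2 change of every listed peak of the 6 genes (vertical axis), by gene (horizontal axis), for MI against sham on the left and aavFto against aavgnp on the right. Each circle is 1 peak, its area grows with peak length, and the filled circle, Tcap at 2.07, is past the authors' FDR of 0.05; Tcap, Flnc and Ankrd23 had no listed peak for MI.

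Tcap encodes telethonin, the small protein that caps the titin end in the Z-disc. The gene lies on chromosome 11 at 98383811 to 98384953 (RefSeq, GRCm38.p6, the assembly of mm10). Its single peak, listed only for aavFto, ran on the plus strand from 98383841 to 98384953, in a block of 116 nt and a block of 802 nt parted by a gap of 195 nt. The peak ended at the annotated 3′ end and began 30 nt inside the 5′ end. Leaving out the gap, its 918 nt covered 96.8% of the 948 nt of the gene span. This takes the gap for an intron, which was not checked against exons. A region of this length does not resolve single sites of methylation.

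The authors' deposited table gave the Tcap peak a log2 change of 2.07, which is 4.20-fold, with a differential p of 4.57e-04 and an FDR of 0.031. Its enrichment over input was 46.7-fold, below the median of 54.3-fold over all listed aavFto peaks. By its log10 enrichment p of -24.7 the peak was the 9th strongest of the 465 listed. By change it also stood 9th from the top. Among the 8 peaks past the FDR, which covered 5 named genes, it had the largest change: the other 7 lay between 0.70 and 1.44. By differential p it ranked 7th of those 8, so the largest change did not come with the smallest p.

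Actn2 encodes the muscle alpha-actinin that cross-links actin filaments in the Z-disc. The gene lies on the minus strand of chromosome 13 at 12269426 to 12340732, so its 3′ end has the lower coordinate. Its 3 aavFto peaks were ordered by distance from that end. The peak nearest the 3′ end, at 12269636 to 12276391, had 5 blocks and 418 nt and stood at 0.29 (p 0.68) in the authors' deposited table. The next, at 12277455 to 12294370, had 8 blocks and 1103 nt, the longest of all member peaks. The authors' deposited table gave it 0.74 (p 0.20), with an enrichment of 83.0-fold, the highest among members, at a log10 p of -12.8. The farthest, at 12309621 to 12310872, had 2 blocks and 120 nt, and the authors' deposited table gave it -0.93 (p 0.57) at a log10 enrichment p of -4.54. Both blocks of this last peak overlap the span of the noncoding gene Gm40667 (12309705 to 12323488), whose strand was not known here.

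In the MI table Actn2 had 2 short peaks, at 1.54 (p 0.45) and 1.36 (p 0.48) in the authors' deposited table. The first, at 12269546 to 12269606, lay 120 nt from the 3′ end of the gene and 29 nt from the nearest block of the aavFto table. The other, at 12276540 to 12277455, held blocks of 3 and 57 nt and lay between the longer pair of aavFto peaks. It shared a single base with one of them, so the tables list adjoining rather than shared stretches of Actn2. Both MI peaks were at a log10 enrichment p of -5.00 or weaker, with enrichments of 71.9-fold and 66.3-fold in the authors' deposited table.

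**Figure D2:**
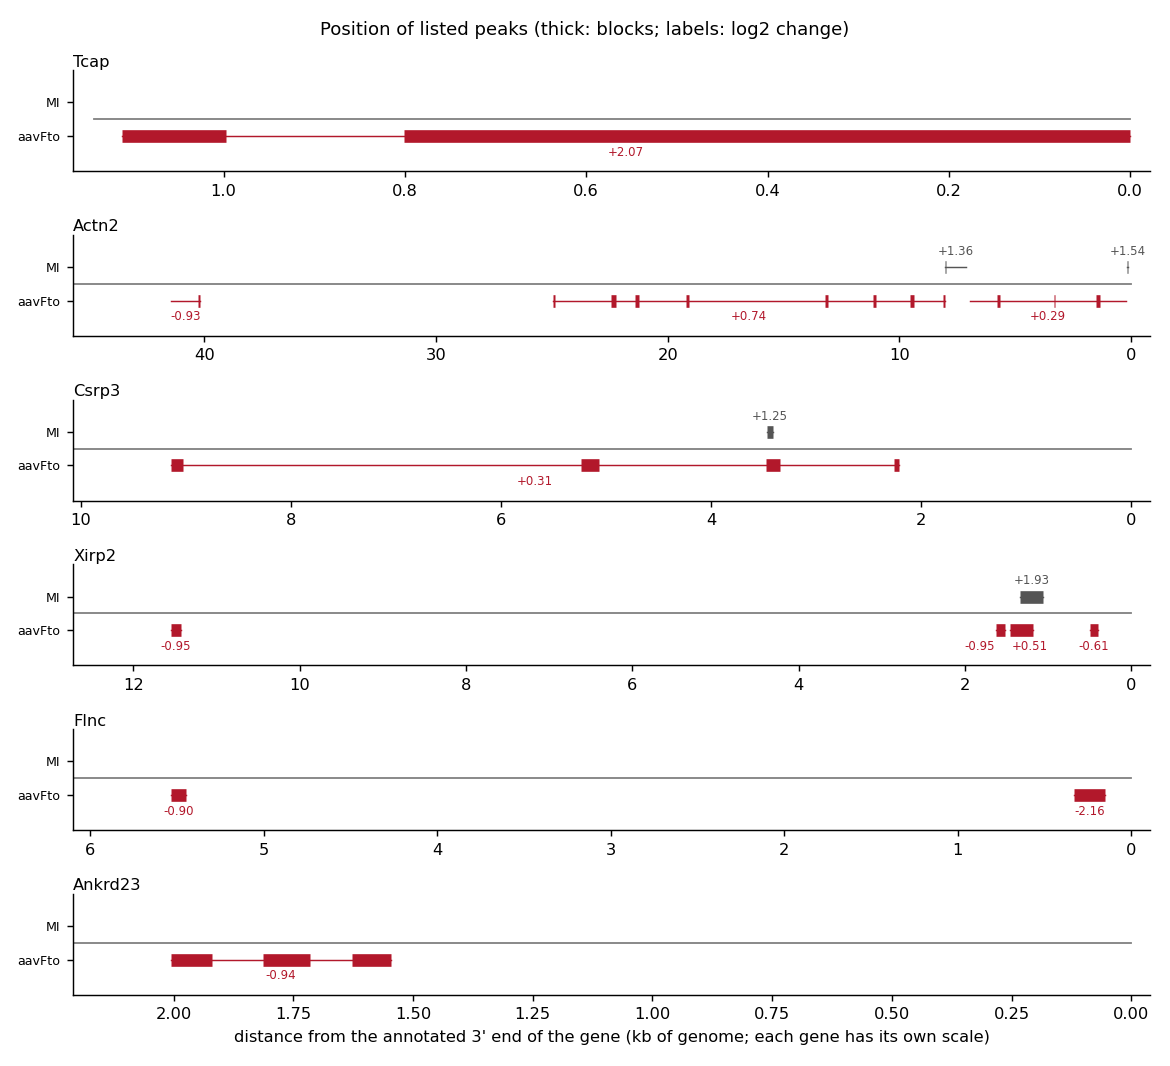
Position of the listed peaks of each gene, as distance in kb of genome from the annotated 3′ end (horizontal axis, 3′ end at the right, a separate scale for each gene, cut off beyond the farthest peak), with MI against sham above the gene line and aavFto against aavgnp below it. Thick bars are blocks, thin lines join the blocks of a peak, and labels give log2 changes; Tcap is covered almost from end to end, while the Xirp2 and Flnc peaks are single short blocks.

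Csrp3 encodes muscle LIM protein, a Z-disc protein linked to stretch sensing that also enters the nucleus. The gene lies on the minus strand of chromosome 7 at 48830398 to 48848051. With aavFto it had 1 peak of 473 nt in 4 blocks, at 48832606 to 48839541. The authors' deposited table placed it at 0.31 (p 0.44), with a 49.2-fold enrichment at a log10 p of -7.86. With MI the listed peak was 60 nt long, at 48833807 to 48833866, and lay wholly inside a 133 nt block of the aavFto peak. The authors' deposited table gave that short peak 1.25 (p 0.50), the smallest MI change among members. The overlapping Csrp3 peaks thus each had a positive change, and neither was called.

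Xirp2 encodes a large actin-binding protein of the Xin repeat family, found at Z-discs and at the cell junctions of heart muscle. The gene lies on the plus strand of chromosome 2 at 67446000 to 67526620, and each of its 5 listed peaks was 1 block. With aavFto, 3 of its 4 peaks ended within 1512 nt of the gene's 3′ end. The strongest of them by enrichment p, 271 nt at 67525168 to 67525438, stood at 0.51 (p 0.44) in the authors' deposited table. Its enrichment was 45.7-fold at a log10 p of -10.6. The peak 59 nt before that one, at 67524989 to 67525108, stood at -0.95 (p 0.57) in the authors' deposited table. This neighbour was 49.0-fold enriched, slightly more, but at a much weaker log10 p of -4.05. The peak 688 nt after the strongest, at 67526127 to 67526217, stood at -0.61 (p 0.64) in the authors' deposited table. It had the lowest fold enrichment of any member peak, 25.9-fold, at a log10 p of -4.11. Neighbouring peaks of Xirp2 thus had changes of opposite sign within a short distance, none of them called.

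The remaining Xirp2 peak, 120 nt at 67515069 to 67515188, stood at -0.95 (p 0.57) in the authors' deposited table. It lies inside the span of Gm13601 (67490648 to 67516715), a noncoding gene on the minus strand, and reads from the pair can be told apart only if the counting used strand, which no source used here states. With MI, Xirp2 had 1 peak of 271 nt at 67525288 to 67525558. The authors' deposited table gave it 1.93 (p 0.16, FDR 0.70), the largest MI change and the smallest MI p among members, with a 70.9-fold enrichment at a log10 p of -7.66. It shared 151 nt, 55.7% of its length, with the strongest aavFto peak of the gene. The deposited change of each whole peak was positive, and neither was called.

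Flnc encodes filamin C, the muscle filamin that links actin at the Z-disc and at the cell membrane. The gene lies on the plus strand of chromosome 6 at 29433153 to 29461889, and both of its peaks were listed only for aavFto. The peak of 181 nt at 29461558 to 29461738 ended 151 nt before the 3′ end of the gene. The authors' deposited table gave it -2.16 (p 0.18, FDR 0.71), the 4th most negative of the 465 listed changes. Its enrichment was 53.4-fold at a log10 p of -6.56, which made it the only negative member peak with an enrichment FDR under 0.001 (1.12e-04). The other, 91 nt at 29456354 to 29456444, had the weakest enrichment p of the member peaks, a log10 p of -3.77, at 46.2-fold. It stood at -0.90 (p 0.58) in the authors' deposited table.

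Ankrd23 encodes a muscle ankyrin repeat protein of the same family as Ankrd1, which binds titin and is linked to stretch responses. The gene lies on the minus strand of chromosome 1 at 36530193 to 36536556. Its single aavFto peak, at 36531739 to 36532199, held 3 blocks of 83, 99 and 88 nt. The authors' deposited table gave -0.94 (p 0.57), with a 56.4-fold enrichment at a log10 p of -4.77. Its family member Ankrd1, given below with the other Z-disc genes, had positive changes at both of its aavFto peaks.

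The sign of a member's change with aavFto mostly followed the enrichment p of its peak, which is what strength means here. By fold enrichment the signs were not separated. Positive member peaks ran from 45.7-fold to 83.0-fold and negative ones from 25.9-fold to 56.4-fold. Of the 6 member peaks with an enrichment FDR under 0.001, 5 were positive and the negative one was that of Flnc at -2.16. All 6 weaker member peaks were negative, between -0.95 and -0.61. The same split over all listed peaks gave 54.5% positive among 224 stronger peaks and 12.4% among 241 weaker ones, so stronger peaks were more often positive over the whole aavFto table as well. In the MI table the order was the opposite, with 72.2% positive among 54 stronger peaks and 95.2% among 62 weaker ones. Spearman's rho between strength (as log10 enrichment p) and change with aavFto was 0.69 over the 12 member peaks and 0.47 over all 465, and -0.15 over all 116 MI peaks. With peak length in place of strength it was 0.65, 0.41 and -0.098. Peaks of a gene share its libraries and its transcript level, so these coefficients describe the table and carry no p. Read depth was not analysed here, and its part in the weak negative peaks was not tested.

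**Figure D3:**
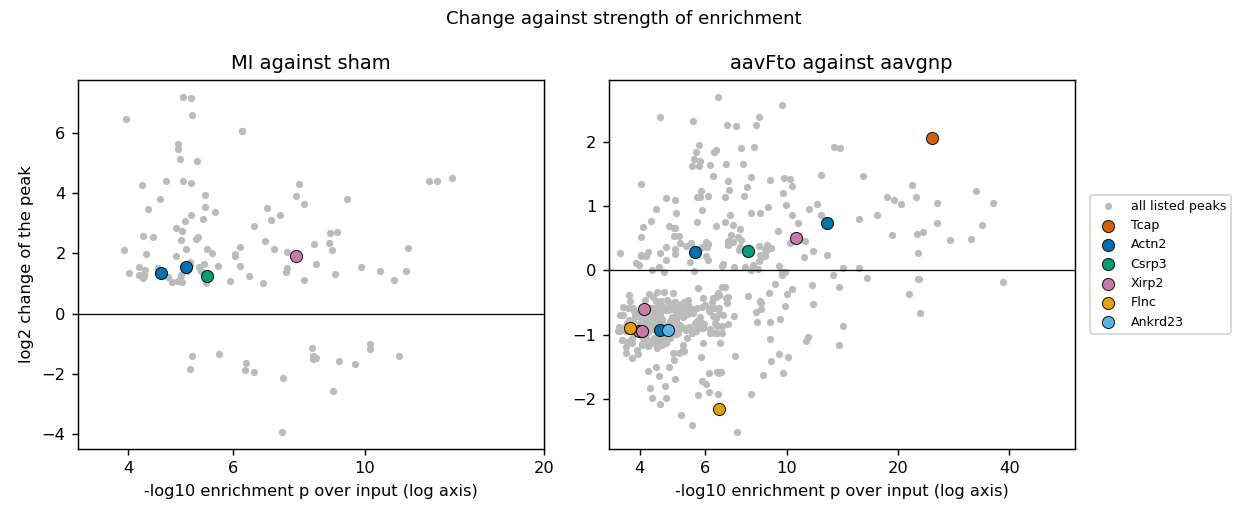
Log2 change (vertical axis) against strength of enrichment, as -log10 of the authors' enrichment p on a log axis (horizontal), for MI against sham on the left and aavFto against aavgnp on the right. Grey points are all listed peaks and coloured points are peaks of the 6 genes; with aavFto the weakest 6 member peaks lie between -0.95 and -0.61 inside the dense grey cluster, and Tcap stands at the upper right.

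As a group, the member peaks had a median log2 change of -0.75 with aavFto, against -0.61 over all listed peaks, and 5 of 12 were positive (41.7%) against 32.7%. The median depended on which peaks were used: with only the strongest peak of each gene it was 0.41. The members' median for MI was 1.45 against 1.92 over the table, and 4 of 4 were positive against 84.5%. By position, 4 of 12 member peaks with aavFto ended within 500 nt of the gene's 3′ end, against 22.0% of the 449 peaks with a gene ID. For MI the count was 1 of 4 against 29.5% of 105. The median length was 225.5 nt with aavFto and 60.5 nt with MI, against 181 and 150.5 nt over all listed peaks.

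Of 51 further genes of the Z-disc and its partners, 17 had a listed peak with aavFto and 6 with MI. Among their 35 peaks with aavFto, none passed the FDR or an unadjusted p of 0.05, against 1.72% and 4.30% of all 465 listed peaks. By each gene's largest change 6 genes were positive and 11 negative, against 30.3% positive of all 271 named genes. The median was -0.69 in both. By each gene's strongest peak 7 were positive, against 34.7% of all named genes. The median was then -0.26, against -0.56 over all named genes. The largest changes in the authors' deposited table were -1.99 (p 0.26) for Ttn, the giant titin whose end Tcap caps, and -1.65 (p 0.34) for Crip2, a LIM domain protein. They were followed by 1.34 (p 0.36) for Cryab, a small heat shock protein that binds desmin, and 1.30 (p 0.39) for the related Hspb7. The more strongly enriched peaks of the last 3 genes stood elsewhere in the authors' deposited table, at 0.10 for Crip2, 0.010 for Cryab and -0.23 for Hspb7. All 5 Ttn peaks were negative, between -1.99 and -0.26. The peak at -0.26 had the strongest enrichment p of the 5, a log10 p of -6.69, against -4.71 for the peak at -1.99. Des, the intermediate filament protein that ties Z-discs together, had a 2083 nt peak at 0.55 (p 0.076) in the authors' deposited table.

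With MI all 6 listed genes of that list were positive, against 87.0% of the 77 named genes, and 1 of them, Ankrd1, passed the FDR. Of the 8 MI peaks of these 6 genes, 2 passed, both of Ankrd1, against 14.7% of all 116 listed MI peaks. Ankrd1 rose at the 2 called peaks, by 2.40 (FDR 4.79e-04) and 2.36 (FDR 0.032) per the authors' deposited table, and its other, weaker peak stood at 3.47 (FDR 0.23). With aavFto its peaks stood at 1.09 (p 0.081) and 0.86 (p 0.060) in the authors' deposited table. The next largest MI changes in the authors' deposited table were 2.20 (p 0.33) for Hspb7, 1.55 (p 0.45) for Nrap, an actin-binding protein of myofibril assembly, and 1.30 (p 0.50) for Hspb6. Of the 17 genes, 11 were listed only with aavFto (64.7%), Ttn, Des and Ldb3 among them, against 197 of all 274 named genes (71.9%).

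**Figure D4:**
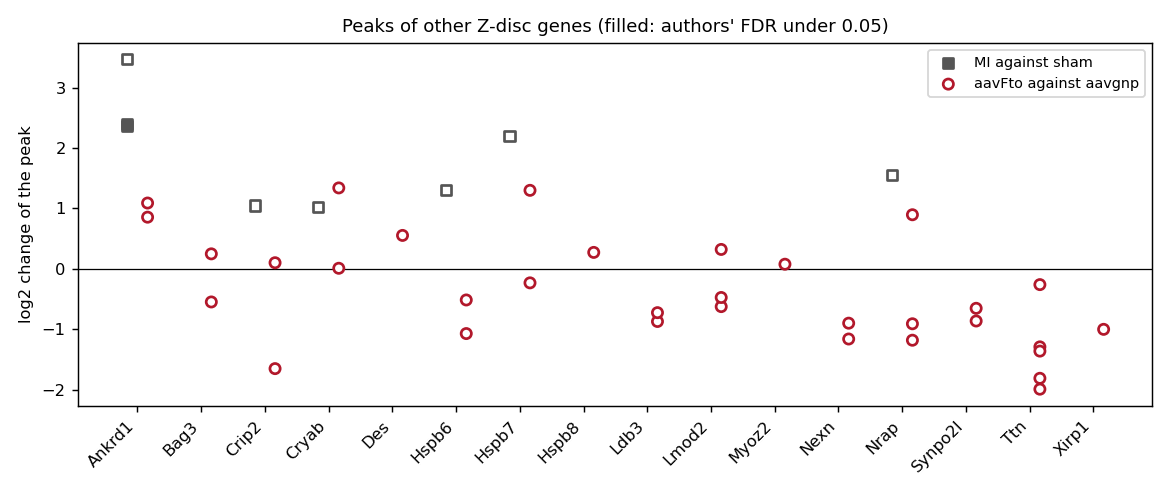
Log2 change (vertical axis) of the listed peaks of 16 of the 17 other Z-disc genes (horizontal axis), with squares for MI against sham and circles for aavFto against aavgnp. Filled symbols, both of Ankrd1 with MI, are past the authors' FDR of 0.05; the 5 Ttn circles all lie below 0.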

How the data were processed

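The submitters' processing notes name STAR 2.5.3a and the build mm10. No source used here names the peak caller, its thresholds or the scaling of libraries. Per the file headers, the authors' tables list each peak's blocks, strand and gene ID, its enrichment p-value, log10 values of the enrichment and differential p and FDR, the fold enrichment over input as a linear ratio, and the log2 change between groups. The enrichment p was read from the deposited log10 column.

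The log10 values were turned into p and FDR, coordinates into 1-based positions, and gene IDs matched to symbols in RefSeq's GRCm38.p6 table (105 of 105 and 449 of 449 peaks with an ID; 6 of 6 members) with Python 3.11.15 and pandas 2.3.3. Distances to gene ends used that table's spans, which hold no exons, so peaks were not assigned to UTR or coding sequence, and no peak sequence was read. No test was computed. Overlap meant at least 1 nt of shared blocks on the same strand, and the overlap and merging steps were tested on simulated data. Depth per library is unknown. Genes named beside the members were those past the FDR, those with an unadjusted p under 0.05 and up to 4 of largest change per table; Des, the genes listed only with aavFto and the aavFto peaks of Ankrd1 were named after their values were seen. Of the other Z-disc genes, 1 was counted but is not reported here by name. The members, lists and alternatives were chosen with earlier results of these data known.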

Additional observations from a re-analysis of the deposited data

How the results depend on the processing

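At an FDR of 0.01 in place of 0.05, 0 member peaks passed with aavFto, since Tcap stood at 0.031. At 0.1, at an unadjusted p and with merged peaks it was 1, and with MI 0 under each of these. Merging could change nothing, because no member peaks of a gene overlapped within a table. With changes of at least 1 only, 1 of 2 aavFto peaks was positive, and with an enrichment FDR under 0.001, 1 of 1 MI peak. The aavFto median of -0.75 turned to 0.41 with the strongest peak of each gene and with an enrichment FDR under 0.001, and was -0.93 with the peak of largest change. Leaving out 1 gene, it was -0.90 without Tcap, without Actn2 or without Csrp3, -0.31 without Xirp2, -0.16 without Flnc and -0.61 without Ankrd23. The MI median of 1.45 was 1.54 with 1 peak per gene by either rule and without Csrp3, 1.93 with the enrichment limit, 1.59 without Actn2 and 1.36 without Xirp2. As the mean over a gene's peaks in place of its strongest, Xirp2 with aavFto turned from 0.51 to -0.50, Actn2 was 0.031, Flnc -1.53 and Actn2 with MI 1.45. These shifts follow from which peaks enter. Sharing at least 50% of the shorter peak, 2 of 3 overlapping peaks remained. No paired analysis was possible because each group has 1 library of each kind. Unknown depth limits every value.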

Other observations

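Several member peaks, from 4 genes, carried nearly the same change with aavFto. The far Actn2 peak, the Ankrd23 peak, the weaker Flnc peak and 2 Xirp2 peaks, 5 in all, lay between -0.95 and -0.90, with differential p-values of 0.57 to 0.58 in the authors' deposited table. Their enrichments ran from 46.2-fold to 56.4-fold. The 5 were picked by a cut on their change, and the limits of this band were taken from their own values. The cut left out the remaining weaker member peak, of Xirp2 at -0.61. In it lay 22 of the 465 listed peaks, the 5 included, in 19 named genes and 1 peak without an ID. Of the 22, 20 had a p between 0.56 and 0.58, a range also set around the p-values of the 5. The mirrored band of positive change held 2 peaks, in a table where 32.7% of the 465 listed changes were positive. The authors' differential FDR took a single value, 0.71, at 443 of the 465 peaks, 11 of the 12 member peaks among them.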
